A study of Mus musculus with 80 samples.

Results

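The Polycomb and trithorax genes of mouse embryonic stem (ES) cells were examined in a study of the zinc-finger protein SALL4A and the TET enzymes, which oxidise 5-methylcytosine. The set held 39 genes chosen by name: 11 of Polycomb repressive complex 2 (PRC2), 19 of PRC1, 6 of the complexes that methylate histone H3 at lysine 4 (H3K4), and 3 histone demethylases. They were looked up by symbol among the 37884 symbols of the tables used. Of the 80 samples in the series, 12 RNA-seq libraries were analysed and 68 were not analysed here.

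The 12 libraries fell into 9 groups. The Sall4 het cells carried Sall4 flox/- and the cells labelled Sall4 KO carried Sall4 delta/-. The next groups were KO cells transfected with mutant SALL4A, and KO cells transfected with wild-type (WT) SALL4A. The others were a Sall1-/-/Sall4-/- double knockout (DKO), the WT cells kept as its control, Sall1 flox/- (Sall1 het), Sall1 delta/- (Sall1 KO), and the WT line TT2. All controls except the DKO control and TT2 thus carried a null allele themselves. The Sall4 het, Sall4 KO and mutant groups had 2 libraries each and every other group had 1. Replicate 1 of these 3 groups and the other single libraries except TT2 were labelled C57BL/6J. Replicate 2 was labelled 129P2/OlaHsd, line E14.1, and TT2 was labelled as an F1 hybrid of C57BL/6NCrlj and CBA/JNCrlj. The labels tie both replicates of a group to the same registered source, so a p-value here reflects library-to-library spread, part of which may be technical. Each gene had 1 deposited value per library, in fragments (FPKM) or, in replicate 2, reads (RPKM) per kilobase of transcript, scaled to the size of the library. No read counts were given, so depth and counting error are unknown.

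PRC2 places methyl groups on lysine 27 of histone H3 through EZH1 or EZH2 and needs the core subunits SUZ12 and EED for this activity. PRC1 carries a RING1 or RNF2 ubiquitin ligase that pairs with a PCGF protein; canonical forms also hold a CBX protein, which reads the PRC2 mark, and a PHC protein, whereas variant forms hold RYBP or YAF2. The trithorax side opposes them by H3K4 methylation, done by SET-domain enzymes that share the WDR5, RBBP5, ASH2L and DPY30 core. In ES cells the Polycomb complexes occupy CpG-rich promoters of silent developmental regulators.

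Sall4 RNA was not lower in the libraries labelled KO or DKO than in their controls. Sall4 itself stood at 196 FPKM and 64.2 RPKM in the 2 het libraries and at 358 FPKM and 218 RPKM in the 2 libraries labelled KO. The label KO therefore is not matched by lower Sall4 RNA, and the single value per gene does not separate the deleted part. In the libraries of KO cells transfected with SALL4A, Sall4 stood at 77.4 FPKM and 161 RPKM (mutant) and 97.4 FPKM (WT). Each was below the KO library of its replicate (log2 ratios -1.92, -0.15 and -1.63). These pairs cross annotations, with 23234 entries against 37883 in replicate 1 and 20223 against 19049 in replicate 2. The transfected label is therefore not judged from them. With 23235 entries, close to the transfected libraries of replicate 1, Sall4 stood at 18.6 FPKM in Sall1 het and 17.8 FPKM in Sall1 KO. Sall4 was also higher in the DKO library (109 FPKM) than in its control (17.6 FPKM), whereas Sall1 was lower there (2.27 against 13.9 FPKM). In the library labelled Sall1 KO, Sall1 stood at 13.3 FPKM against 21.8 FPKM in Sall1 het (log2 ratio -0.67), close to the DKO control. ES markers were present in every library, with Pou5f1 between 453 and 1703 in the deposited units. The summed scaled level of the fibroblast markers was 390 and 402 in the DKO control and DKO, 124 and 122 in the Sall1 pair, 13.0 to 117 in the Sall4 set and 7.99 in TT2. Fewer cells of a type and less RNA per cell cannot be told apart in such bulk samples.

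The 39 genes were spread over a wide range of levels. For comparisons across all 12 libraries, a median-ratio factor was taken from the 7865 genes at 1 or more in each. Within PRC2 the histone-binding subunit Rbbp7 had the highest median scaled level (148) and Phf19, an accessory Polycomb-like protein, the lowest (2.43). Within PRC1 these were Phc1 (121), a polyhomeotic protein, and Cbx8 (0.736), a chromodomain protein. Among the H3K4 subunits Dpy30, a small core subunit, was highest (231) and Setd1b, a catalytic subunit, lowest (2.75). Kdm5b, an H3K4 demethylase, was the highest of the demethylases (46.2), and Kdm6b, which removes the PRC2 mark, the lowest (3.23).

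**Figure D1:**
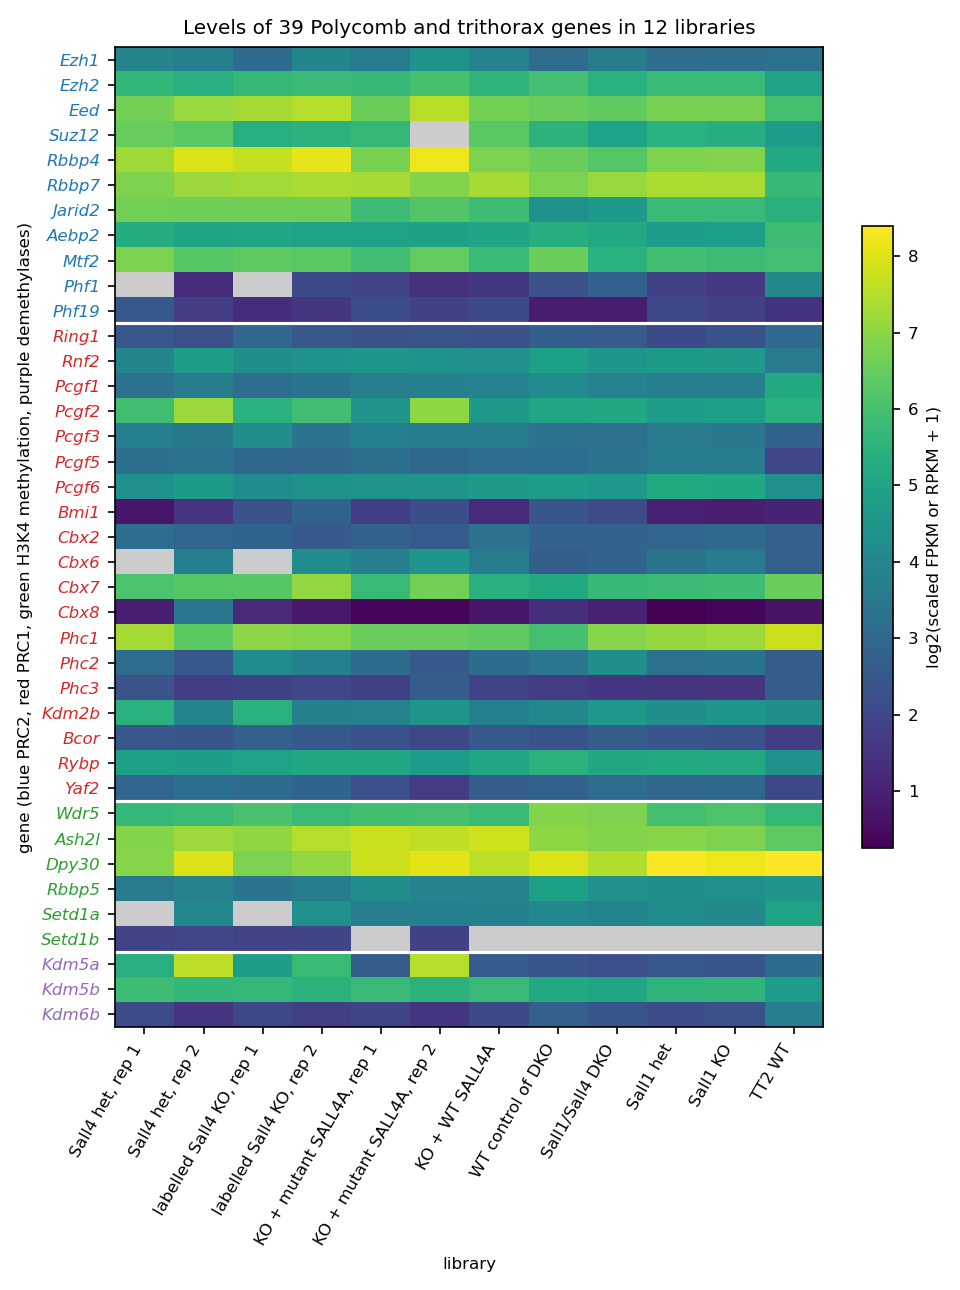
Heat map of log2(scaled FPKM or RPKM + 1) for the 39 genes (rows, by class) in the 12 libraries (columns); grey cells are genes not listed in that table. Rbbp7, Phc1 and Dpy30 are bright in most columns, while Suz12, Pcgf2, Bmi1, Phc2, Jarid2 and Kdm5a vary between libraries.

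The genes at the ends of each class varied as follows. Rbbp7 stood at 133 and 163 in the het libraries, 174 and 200 in those labelled KO, 149 and 110 with mutant SALL4A, 153 with WT SALL4A, 112 in the DKO control, 137 in the DKO, 169 in Sall1 het, 169 in Sall1 KO and 29.5 in TT2, in the deposited units. Phc1 stood at 183 and 92.1 in het, 144 and 147 in KO, 83.5 and 83.8 with mutant, 81.2 with WT, 64.7 in the DKO control, 120 in the DKO, 139 and 150 in Sall1 het and KO, and 121 in TT2. Both KO values of Rbbp7 lay above both het values, whereas the het values of Phc1 enclosed its KO values. Setd1b was listed in 5 tables, at 3.22 and 3.38 in het, 3.13 and 3.50 in KO and 2.40 in mutant replicate 2. Kdm5b stood at 67.3 and 55.6 in het, 57.2 and 53.5 in KO, 49.3 and 41.3 with mutant, 50.4 with WT, 36.9 and 32.1 in the DKO control and DKO, 46.8 and 47.5 in Sall1 het and KO, and 14.3 in TT2. Kdm6b stood at 3.86 and 2.05 in het, 3.44 and 3.01 in KO, 2.66 and 1.73 with mutant, 3.05 with WT, 5.87 and 4.35 in the DKO control and DKO, 3.64 and 3.92 in Sall1 het and KO, and 7.04 in TT2. The het and KO values of Setd1b, Kdm5b and Kdm6b overlapped, and TT2 held the lowest Kdm5b value and the highest Kdm6b value.

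Between the libraries labelled Sall4 KO and the Sall4 het libraries, Bmi1 and Phc2 of canonical PRC1 were higher in both replicates, and Suz12 of the PRC2 core was lower in both. None of these differences passed the test across all genes. No gene passed limma's moderated test at a Benjamini-Hochberg adjusted p of 0.05 among 15078 fitted (0%), and 1283 genes (8.51%) had an unadjusted p under 0.05, the smallest adjusted p being 0.237. Of the 39 genes 36 were fitted, none passed, and Bmi1, Phc2 and Suz12 had an unadjusted p under 0.05. A 1.5-fold difference in the same direction in both replicates was met by 2 genes that were higher (Bmi1 and Phc2) and 2 that were lower (Suz12 and the demethylase gene Kdm5a). They were among 32 members with a scaled value of at least 5 in any of the het and KO libraries. Bmi1 met this limit through KO replicate 2 alone. Over all genes 3.64% were higher and 5.19% lower (8.83% in either direction). The het and KO values did not overlap for 12 of 33 members, 6 higher and 6 lower, beside 14.7% of all genes higher and 16.2% lower (30.8% in either direction). Those shares lie close to the background, so the counts by themselves are not a result about the set.

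Markers of other cell types differed between the same libraries. The summed scaled level of 9 primitive endoderm markers, 5 of them listed in replicate 2, was 3.49 and 1.63 in het and 8.98 and 5.82 in KO. That of 8 trophoblast markers was 96.5 and 51.8 in het and 147 and 59.7 in KO. In replicate 2, 5 of these were higher in KO, with Tfap2c at 16.7 RPKM in het and 31.3 RPKM in KO. Krt8, Krt18 and Elf5 were lower there. The fibroblast sum was 59.9 and 48.0 in het and 117 and 39.2 in KO. The sum of the neural markers, 4 of them listed in each replicate, was 5.06 and 57.4 in het and 4.33 and 48.4 in KO. Among the primitive endoderm markers Dab2 had a log2 change of 1.10 ± 0.22 (SE, limma adjusted p = 0.427), without passing. Gata4 stood at 0.824 and 0.200 in het and 1.95 and 2.11 in KO, and met the filter on low values through the KO libraries alone, so its fitted change is not read. The part of these markers in the values of the Polycomb genes was not tested.

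Suz12, the subunit that holds the PRC2 core together, stood at 105 FPKM and 89.4 RPKM in the het libraries. It stood at 46.8 FPKM and 53.9 RPKM in the libraries labelled KO, at 46.0 FPKM in mutant replicate 1 and at 74.9 FPKM with WT SALL4A; mutant replicate 2 did not list it. The het values lay above both KO values with no overlap. In the deposited units the mutant value was close to the KO values and the WT value lay between. The pairs with the transfected libraries cross annotations, and their scaled log2 ratios against KO replicate 1 were 0.25 (mutant) and 0.90 (WT). The log2 ratios of KO to het were -1.14 and -0.78 in the 2 replicates. The fit across genes, which used 5 libraries for Suz12, gave a log2 change of -0.97 ± 0.27 (SE; limma, unadjusted p = 0.0256, adjusted p = 0.517). In the DKO pair Suz12 was lower in the knockout too, at 30.0 FPKM in the DKO and 46.2 FPKM in its control (log2 ratio -0.58). It stood at 44.2 FPKM in Sall1 het, 40.3 FPKM in Sall1 KO and 14.7 FPKM in TT2.

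The nearest entries on either side of Suz12, which spans chr11:79806607-79847625 (mm9), were chosen after their values were seen. Utp6, 30717 bases before it, stood at 42.9 and 51.0 in het and 29.7 and 28.6 in KO. Crlf3, 12374 bases after it, stood at 34.0 and 27.6 in het and 21.8 and 23.7 in KO. Both neighbours were lower in both KO libraries, with fitted log2 changes of -0.70 ± 0.24 for Utp6 (SE; limma adjusted p = 0.548) and -0.45 ± 0.23 for Crlf3 (adjusted p = 0.679).

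Bmi1, which encodes the PCGF4 subunit of canonical PRC1 and is known as a repressor of the Cdkn2a locus, was among the least abundant members. It stood at 0.810 FPKM and 2.11 RPKM in het and at 4.31 FPKM and 7.79 RPKM in KO. With mutant SALL4A it stood at 2.23 FPKM and 3.41 RPKM and with WT SALL4A at 1.27 FPKM. Both KO libraries lay above every other library of the Sall4 set, the mutant pair lay between het and KO, and the WT library lay within the het range. The log2 ratios of KO to het were 1.56 and 1.45, and the fit gave 1.46 ± 0.21 (SE; limma, unadjusted p = 0.00139, adjusted p = 0.356). Outside the Sall4 set Bmi1 stood at 4.56 FPKM in the DKO control, 3.27 FPKM in the DKO, 1.04 FPKM in Sall1 het, 0.948 FPKM in Sall1 KO and 0.610 FPKM in TT2. The DKO value was below that of its own control.

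The neighbouring gene Commd3, which ends 800 bases before Bmi1 on chromosome 2 (mm9; Commd3 at chr2:18594088-18597843), was looked at after its values were seen. It stood at 7.59 and 17.2 in het, 40.6 and 52.6 in KO, 27.9 and 26.7 with mutant SALL4A and 14.6 with WT SALL4A. The order of these groups was the same as for Bmi1, at a higher level. The fitted log2 change of Commd3 between KO and het was 1.87 ± 0.35 (SE; limma adjusted p = 0.418). In the DKO pair the genes parted, with Commd3 at 56.7 FPKM in the DKO and 35.9 FPKM in its control. The sources used here do not say how reads were assigned between both genes, so their part in each other's values was not tested.

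Phc2, a polyhomeotic subunit through which canonical PRC1 can polymerise, stood at 9.29 FPKM and 5.31 RPKM in het and at 19.4 FPKM and 15.5 RPKM in KO. It stood at 7.13 FPKM and 4.55 RPKM with mutant SALL4A and at 7.56 FPKM with WT SALL4A. Both KO values were above all 5 others, and the transfected libraries lay near het. The log2 ratios of KO to het were 1.00 and 1.33, and the fit gave 1.14 ± 0.21 (SE; limma, unadjusted p = 0.0040, adjusted p = 0.418). Phc2 stood at 10.3 FPKM in the DKO control and 17.6 FPKM in the DKO, a log2 ratio of 0.74. It stood at 8.91 FPKM in Sall1 het, 9.59 FPKM in Sall1 KO and 3.00 FPKM in TT2.

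Pcgf2, the paralog of Bmi1 that is the main canonical PCGF gene of ES cells, stood at 69.9 FPKM and 164 RPKM in het and at 49.2 FPKM and 70.9 RPKM in KO. Both KO values were lower within their own replicate, although in the deposited units KO replicate 2 exceeded het replicate 1; after scaling the groups did not overlap. The log2 ratios were -0.49 and -1.26 and the fit gave -0.89 ± 0.56 (SE; limma adjusted p = 0.731). Over the het and KO libraries alone the fit gave -0.89 ± 0.29 (SE, limma adjusted p = 0.376). The change was -0.14 without KO replicate 2 and -1.64 without KO replicate 1. Both of these fits take the difference between replicates from the het and mutant libraries. They are therefore not read as dependence on 1 KO library. Pcgf2 stood at 19.9 FPKM and 122 RPKM with mutant SALL4A, 23.6 FPKM with WT SALL4A, 33.6 FPKM in the DKO control and 33.2 FPKM in the DKO. The Sall1 het library held 26.2 FPKM, Sall1 KO 28.4 FPKM and TT2 23.7 FPKM. The mutant replicates differed in direction against KO, with log2 ratios of -0.99 and 1.06. The neighbouring genes Cisd3 (40.8 and 58.1 in het, 29.6 and 39.7 in KO) and Psmb3 (356 and 505 in het, 209 and 256 in KO), chosen after their values were seen, were lower in KO as well.

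**Figure D2:**
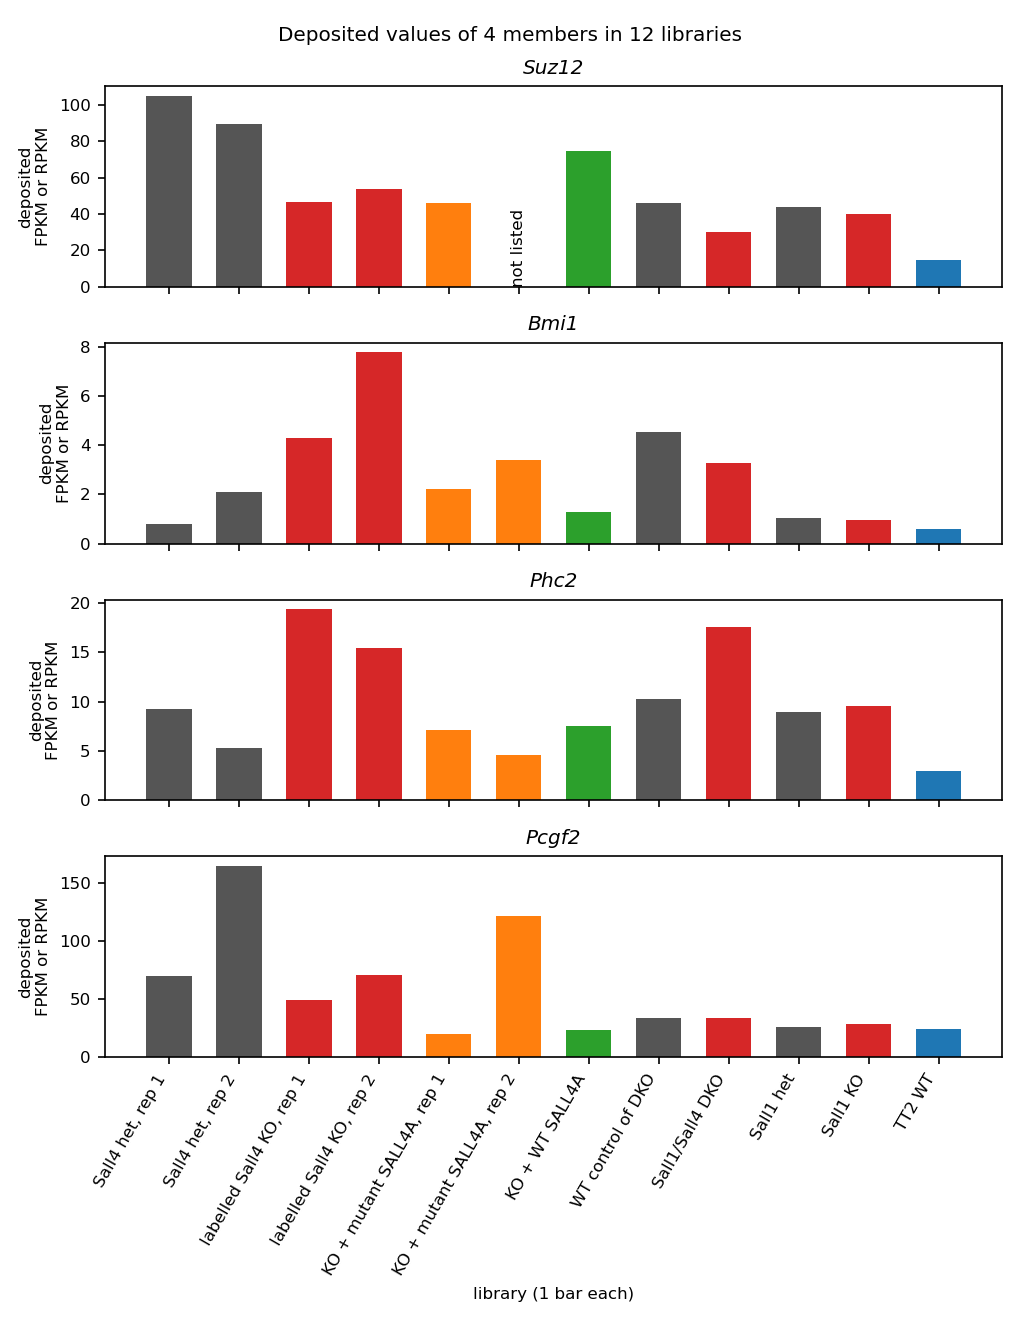
Bars give the deposited FPKM or RPKM of Suz12, Bmi1, Phc2 and Pcgf2 in each of the 12 libraries (1 bar per library, no error bar; grey het or WT, red labelled KO or DKO, orange mutant, green WT SALL4A, blue TT2). Suz12 is at 105 and 89.4 in het against 46.8 and 53.9 in KO, while Bmi1 and Phc2 are higher in KO than in het.

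The promoter windows of Suz12, Bmi1 and Phc2 are shown because they are the members with an unadjusted p under 0.05 between KO and het, and that of Pcgf2 as the paralog of Bmi1. The windows run from 250 bases before to 50 bases after the transcription start, from RefSeq on GRCm38.p6, and are read on the strand of the gene. Capitals mark the E-box CACGTG and the core CCATNTT of the YY1 motif (YY1 is the mammalian homolog of the fly Polycomb protein PHO), each searched on both strands. These letters were chosen after the sequences were read.
Suz12 (chr11:79992856-79993155, plus strand): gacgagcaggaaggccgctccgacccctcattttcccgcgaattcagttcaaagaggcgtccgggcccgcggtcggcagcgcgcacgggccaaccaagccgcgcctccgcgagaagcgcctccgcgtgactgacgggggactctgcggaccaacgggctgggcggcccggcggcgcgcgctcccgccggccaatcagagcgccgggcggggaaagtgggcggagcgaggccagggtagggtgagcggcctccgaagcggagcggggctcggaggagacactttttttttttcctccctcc
Bmi1 (chr2:18676768-18677067, plus strand): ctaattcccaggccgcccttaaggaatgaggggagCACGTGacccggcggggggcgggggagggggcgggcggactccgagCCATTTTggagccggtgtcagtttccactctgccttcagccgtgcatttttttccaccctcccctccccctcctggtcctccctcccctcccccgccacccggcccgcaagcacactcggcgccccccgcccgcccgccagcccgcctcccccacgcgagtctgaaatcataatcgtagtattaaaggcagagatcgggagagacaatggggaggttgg
Pcgf2 (chr11:97699599-97699898, minus strand): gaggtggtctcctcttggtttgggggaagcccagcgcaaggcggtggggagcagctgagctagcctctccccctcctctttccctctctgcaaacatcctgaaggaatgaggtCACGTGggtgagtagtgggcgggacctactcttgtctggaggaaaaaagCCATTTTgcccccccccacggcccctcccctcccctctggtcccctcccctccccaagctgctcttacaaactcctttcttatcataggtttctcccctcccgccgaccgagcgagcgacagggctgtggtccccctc
Phc2, the most upstream of 3 windows (chr4:128654452-128654751, plus strand): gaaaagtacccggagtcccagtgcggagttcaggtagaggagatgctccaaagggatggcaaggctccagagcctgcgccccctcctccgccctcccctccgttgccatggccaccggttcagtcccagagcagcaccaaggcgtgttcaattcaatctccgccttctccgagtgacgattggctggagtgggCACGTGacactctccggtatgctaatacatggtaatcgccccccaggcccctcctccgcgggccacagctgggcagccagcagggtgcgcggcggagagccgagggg
The Suz12 window held 41 CpG dinucleotides and neither motif. Bmi1 held 23 CpG, an E-box starting at -215 and CCATTTT at -169 from the start. Pcgf2 held 10 CpG, an E-box at -137 and CCATTTT at -88. The Phc2 window held 19 CpG and an E-box at -57.

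Windows were found for 31 of the 39 genes (46 windows). Their median of 23.5 CpG was above the median of 7 over all 32851 windows of the RefSeq table. CACGTG stood in 15.2% of the members' windows and in 7.15% of all windows, and CCATNTT in 19.6% and 16.1%. ATATT, a short AT-rich string, stood in 6.52% and 25.3%. The E-box and YY1 letters were chosen after the windows shown were read, and those windows are among the ones counted. The windows of all genes are also not matched to the members for CpG. These shares are therefore not read as an excess or a lack of a motif. A match describes letters in the window and not a binding site.

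The shares of the 6 PCGF paralogs within a library do not depend on how libraries are scaled. Bmi1 made up 0.629% and 0.915% of the summed PCGF values in het and 3.89% and 5.76% in KO. Pcgf2 made up 54.3% and 71.3% in het and 44.4% and 52.4% in KO. With mutant SALL4A its share was 27.4% and 69.8%, and with WT SALL4A 29.4%. These libraries have other entry sets than the KO libraries, and the part of the annotations in the shares was not tested. The KO values of Bmi1 lay above and those of Pcgf2 below the het values in both replicates. In the DKO pair the Bmi1 share was 4.56% in the control and 3.61% in the DKO, and in the Sall1 pair 1.03% and 0.951%. With 2 libraries against 2, an exact permutation test cannot give a two-sided p below 0.333.

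**Figure D3:**
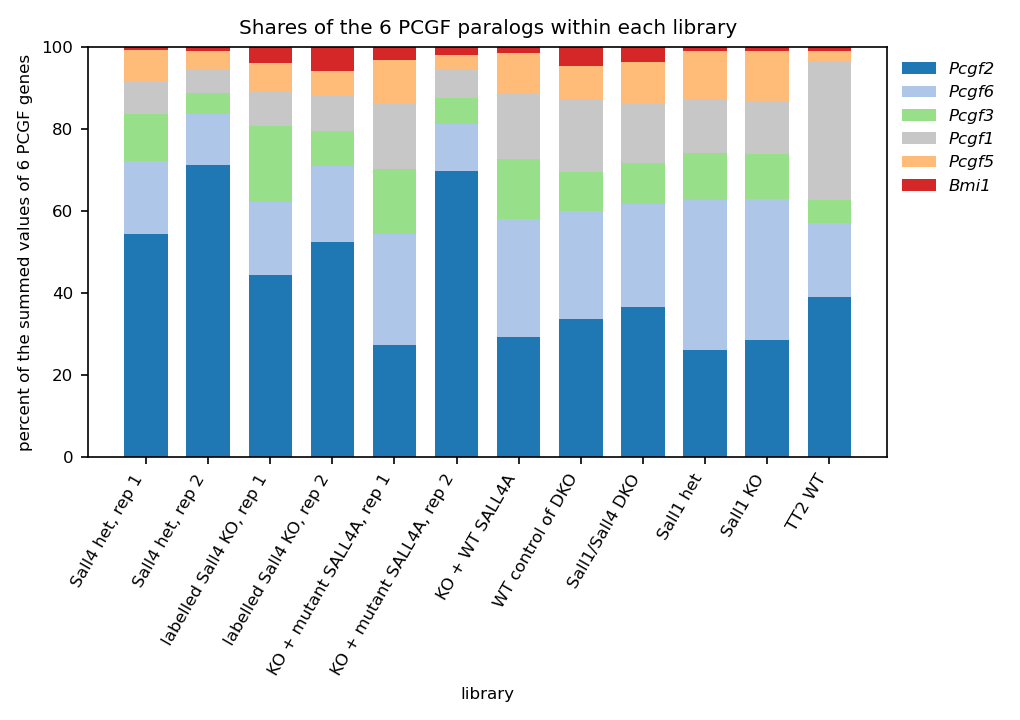
Stacked bars of the percent of the summed FPKM or RPKM that each of the 6 PCGF paralogs takes within each of the 12 libraries. The Bmi1 segment grows from 0.629% and 0.915% in het to 3.89% and 5.76% in the libraries labelled KO.

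Among the other paralog families, Ezh1 made up 22.6% and 23.8% of Ezh1 plus Ezh2, the catalytic subunits of PRC2, in het, and 13.1% and 21.5% in KO. Across all libraries Ezh2 held between 75.7% and 88.4% of the pair. The Phc2 share of the 3 polyhomeotic genes was 4.71% and 5.30% in het and 11.6% and 9.34% in KO. Cbx7, the main chromodomain reader of ES cells, held 66.0% to 88.6% of Cbx2, Cbx6, Cbx7 and Cbx8 in the 10 libraries that list Cbx6. No family moved by over 10 percentage points in the same direction in both replicates of KO against het or of mutant against KO.

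Further members differed in 1 replicate or with the annotation. Phf19 stood at 5.41 and 2.64 in het and 1.73 and 2.32 in KO, with log2 ratios of -1.22 and -0.17. It stood at 3.35 and 2.42 with mutant, 3.11 with WT, 0.899 in the DKO control, 0.842 in the DKO, 3.06 in Sall1 het, 2.60 in Sall1 KO and 0.984 in TT2. Both KO values of Phf19 lay below both het values, by a large margin in replicate 1 only. Cbx8 stood at 1.06 and 11.2 in het, 1.52 and 0.964 in KO, 0.304 and 0.284 with mutant, 0.654 with WT, 1.63 in the DKO control, 1.07 in the DKO, 0.194 in Sall1 het, 0.307 in Sall1 KO and 0.344 in TT2. Het replicate 2 stood apart from every other library for Cbx8, and the log2 ratio of -2.67 in replicate 2 rests on it.

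Kdm5a, an H3K4 demethylase, stood at 47.3 and 215 in het, 30.7 and 65.9 in KO, and 4.85 and 166 with mutant SALL4A. It stood at 4.98 with WT, 4.42 in the DKO control, 3.63 in the DKO, 4.72 in Sall1 het, 4.48 in Sall1 KO and 4.39 in TT2. The 5 libraries at 30.7 or above were the Sall4 het and KO libraries and mutant replicate 2, whose tables have other entry sets than the rest. The mutant replicates differed by 4.84 on the log2 scale, so for Kdm5a only the log2 ratios of KO to het within a replicate are read (-0.60 and -1.75). The fitted KO change was -1.19 ± 0.96 (SE, limma adjusted p = 0.806) with the mutant libraries in the fit. Over the het and KO libraries alone it was -1.19 ± 0.36 (SE, limma adjusted p = 0.365). It was 0.094 without KO replicate 2 and -2.48 without KO replicate 1. Both of these fits take the difference between replicates from the het and mutant libraries, so they are not read for Kdm5a. The Kdm5a entry overlaps that of Ccdc77 in both het replicates and in the DKO, the libraries in which overlaps were looked up. Kdm2b, which brings variant PRC1 to CpG islands, also had table-dependent levels, with het and KO replicate 1 above all other libraries. It stood at 50.4 and 16.1 in het, 48.8 and 15.7 in KO, 12.5 and 20.3 with mutant, 12.2 with WT, 16.0 in the DKO control, 22.7 in the DKO, 18.4 in Sall1 het, 22.9 in Sall1 KO and 10.5 in TT2. Its het and KO values were close within each replicate and far apart between replicates.

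**Figure D4:**
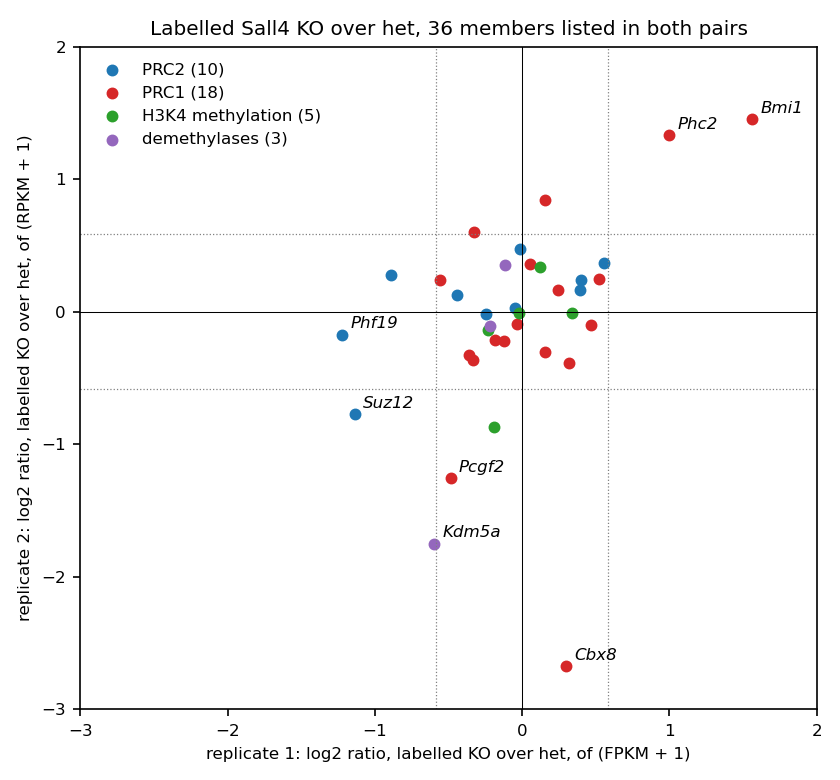
Each point is 1 of the 36 members listed in both pairs, with the log2 ratio of labelled KO to het in replicate 1 (x axis) and replicate 2 (y axis); dotted lines mark 1.5-fold. Bmi1 and Phc2 lie beyond 1.5-fold at the upper right and Suz12 and Kdm5a at the lower left.

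The comparison of the classes gave no common shift of PRC2, PRC1 or H3K4 subunits. The median log2 ratio of KO to het was -0.15 and 0.16 in the 2 replicates for PRC2, 0.11 and -0.091 for PRC1, and -0.023 and -0.0087 for the H3K4 subunits, beside -0.0053 and 0.0026 over all genes. The medians of PRC2 and PRC1 had opposite signs in the 2 replicates. In replicate 1, 2 of 10 PRC2 members with a value of at least 5 were 2-fold lower (Suz12 and Phf19), beside 4.51% of all genes. In replicate 2, 2 PRC1 members of 18 were 2-fold higher (Bmi1 and Phc2) and 2 were 2-fold lower (Pcgf2 and Cbx8), beside 5.71% and 7.89% of all genes. Bmi1 reached a value of 5 through the KO library alone, and Phf19 and Cbx8 through the het library alone. The limit thus favoured the direction in which they were counted, so these counts are not read as a shift of a class.

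The libraries of KO cells transfected with SALL4A share the KO libraries as reference with the comparison above, so their values are given side by side and not as a separate test of it. The WT library and mutant replicate 1 list 23234 entries and the KO library of replicate 1 lists 37883, and mutant and KO replicate 2 list 20223 and 19049 entries, so all 3 pairs cross annotations. In mutant against KO no gene passed among 11632 fitted (0%), with 1136 (9.77%) at an unadjusted p under 0.05. Of the 34 members fitted, 4 had an unadjusted p under 0.05: Phc2 at -1.17 ± 0.21 (adjusted p = 0.365), Yaf2 at -1.05 ± 0.28 (0.426), Dpy30 at 0.97 ± 0.33 (0.479) and Bmi1 at -0.61 ± 0.21 (0.479), each a log2 change ± SE from limma with its adjusted p. Without mutant replicate 1 the fit called 329 genes and without mutant replicate 2 it called 787; with replicate 2 left out Kdm2b was called (-1.58 ± 0.27, adjusted p = 0.0306) and without replicate 1 its value was 0.58 ± 0.28. In both of these fits the mutant arm is a single library that is assumed to vary like the het and KO libraries, so these calls hold no replicate check of the mutant.

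Yaf2, which replaces RYBP in variant PRC1, stood at 7.65 and 9.39 in het and 8.57 and 7.71 in KO. It stood at 3.46 and 2.08 with mutant SALL4A and 5.14 with WT SALL4A. Both mutant values were below all het and KO values, and the WT value lay between. Yaf2 stood at 6.02 in the DKO control, 7.77 in the DKO, 6.84 in Sall1 het, 7.01 in Sall1 KO and 1.72 in TT2. A 1.5-fold difference the same way in both replicates was found for 1 higher member (Dpy30) and 2 lower members (Phc2 and Yaf2) of 31, beside 3.68% of all genes higher and 3.93% lower (7.61% in either direction).

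Dpy30, a core subunit of the H3K4 complexes, stood at 143 and 285 in het and 124 and 162 in KO. It stood at 203 and 249 with mutant SALL4A and 185 with WT SALL4A, all 3 above both KO values. The log2 ratios of mutant to KO were 0.99 and 0.91. Dpy30 stood at 250 in the DKO control, 172 in the DKO, 329 in Sall1 het, 300 in Sall1 KO and 192 in TT2. The H3K4 class median in the replicate 1 pairs was 0.77 for mutant and 0.63 for WT against KO, over 4 members, and 0.066 in mutant replicate 2 over 6. That of PRC1 was -0.50, -0.46 and -0.076 in the same pairs. The part of the annotations in these medians was not tested. Of the members with a value of at least 5, 3 of 30 were 2-fold apart in mutant against KO replicate 1 (20.9% of all genes), 4 of 32 in replicate 2 (16.8%) and 3 of 30 in WT against KO (22.8%).

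**Figure D5:**
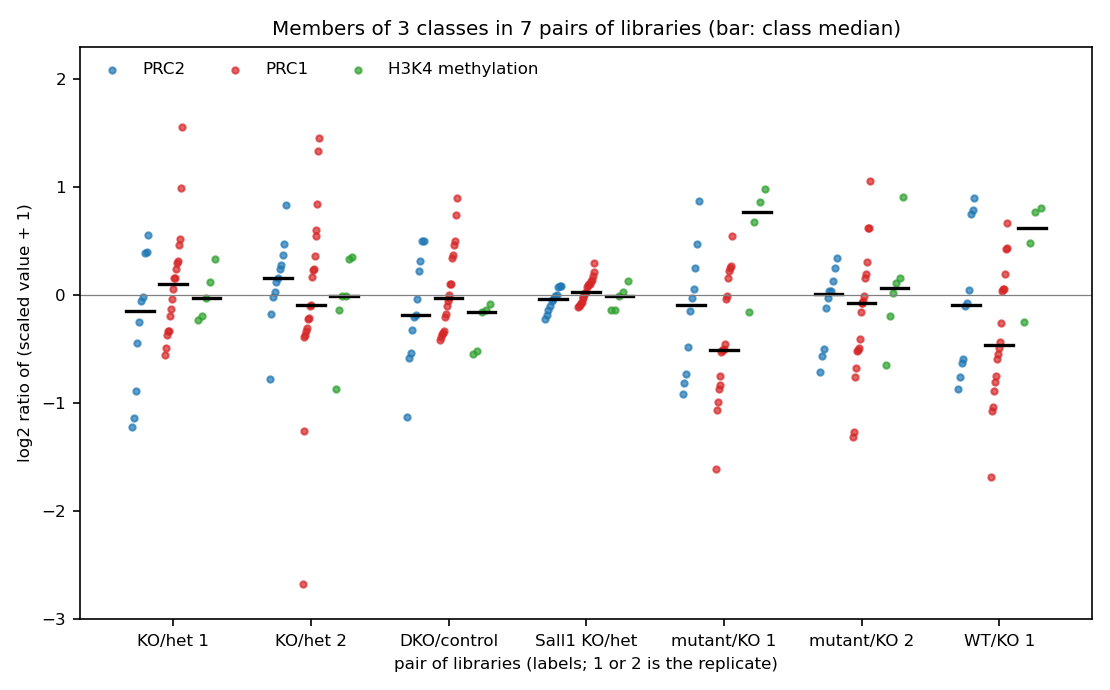
Points are members of PRC2, PRC1 and the H3K4 complexes and black bars their medians; the y axis is the log2 ratio of (scaled value + 1) and the x axis the 7 pairs of libraries. The Sall1 pair is the narrowest, and the H3K4 medians of 0.77 and 0.63 are those of mutant and WT SALL4A against KO in replicate 1.

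The DKO and its control differed little over the set. Of 33 members at 5 or more, 1 was 2-fold apart, beside 8.49% of all genes: Mtf2, a Polycomb-like protein that brings PRC2 to CpG islands, at 42.1 FPKM in the DKO and 94.9 FPKM in the control (log2 ratio -1.13). Mtf2 did not show this in the Sall4 pairs, at 128 and 84.6 in het and 93.3 and 96.0 in KO, with 54.9 and 80.9 for mutant and 52.1 for WT. It stood at 60.8 in Sall1 het, 57.0 in Sall1 KO and 34.8 in TT2. All 5 listed H3K4 members were lower in the DKO, with a median of -0.15 beside 0.0075 over all genes, of which 50.7% were higher, and all 3 demethylases were lower. The summed scaled level of the trophoblast markers was 43.3 in the control and 173 in the DKO, with Krt8 at 4.79 and 63.9 FPKM, and that of the primitive endoderm markers was 3.01 and 6.88; their part in these values was not tested. These are single libraries with no replicate check. In the Sall1 pair none of 29 members was 2-fold apart, beside 1.35% of all genes, and the largest log2 ratio was that of Kdm2b (0.30).

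Jarid2, a PRC2 cofactor, differed more between sets of libraries than between knockout and control. It stood at 117 and 113 in het and 112 and 120 in KO, at 21.0 and 24.2 in the DKO control and DKO, and at 55.5 and 53.5 in Sall1 het and KO. It stood at 52.0 and 68.8 with mutant SALL4A, 55.6 with WT SALL4A and 23.9 in TT2. Among the ES libraries other than TT2 the lowest values were in the DKO pair, which also has the highest summed fibroblast markers. The Sall4 het and KO libraries, with the highest values, have other entry sets than the DKO and Sall1 pairs. The part of the markers and of the annotations in this was not tested.

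None of the other genes of both systems passed the test. Of 21 fitted genes among 26 further Polycomb genes, 15 were higher and 6 lower in KO (median log2 change 0.11), and Scmh1 had an unadjusted p under 0.05 (-0.81 ± 0.23 SE, limma adjusted p = 0.489). Scmh1, a PRC1-associated protein, stood at 10.2 and 17.4 in het and 6.00 and 9.03 in KO. Of 19 fitted genes among 21 further trithorax genes, 12 were higher and 7 lower (median 0.087), and only Uty had an unadjusted p under 0.05. Uty, a Y-linked relative of the demethylase Kdm6a, stood at 3.06 and 2.94 in het and 1.02 and 0.473 in KO. Of 46 developmental regulators known as Polycomb targets, the replicate 1 pair listed 44, of which 34 were higher in KO (median log2 ratio 0.24), and the replicate 2 pair listed 23, of which 17 were higher (median 0.35). Over all genes at 1 or more in either library of the pair, 49.5% and 50.2% were higher, with medians of -0.0053 and 0.0026. The regulators were counted at any level, so this background is not matched to them and no excess is read from it. Most of these regulators were unlisted in a library or under the filter on low values, so no count is drawn from the 8 that could be fitted. Cdkn2a, the cell-cycle inhibitor locus repressed by BMI1, stood at 14.4 and 15.3 in het and 34.4 and 32.8 in KO (1.09 ± 0.24 SE, limma adjusted p = 0.441). Cdkn2b, its neighbour and also a cell-cycle inhibitor, stood at 2.62 and 2.25 in het and 7.99 and 4.54 in KO. Hand1, a regulator of trophoblast and mesoderm, stood at 2.77 and 1.25 in het and 7.33 and 3.23 in KO. In both replicates the KO values of Cdkn2a, Cdkn2b and Hand1 lay above both het values.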

How the data were processed

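The 12 RNA-seq tables used were 9 in FPKM and 3 in RPKM as deposited by the authors. Per the submitters' processing notes TopHat, Bowtie 0.12.7 and SAMtools were used on mm9, and the tool that made the values is not stated there. Rows of 1 symbol were summed. Fits used limma 3.58.1 in R 4.3.3 on log2(scaled value + 1) of the 6 Sall4 het, KO and mutant libraries, with group and replicate number as terms, eBayes with trend and Benjamini-Hochberg adjustment at 0.05. Values were scaled by the median ratio; genes at 1 or more in at least 2 libraries were fitted. Fold changes on this scale understate those of low genes. Other pairs are single libraries: log2 ratios of (value + 1), with 2-fold counted among genes at 5 or more in 1 library. Same-numbered libraries share strain labels and unit; their deviations from group means correlated at r = 0.578 (het with KO), 0.104 (het with mutant) and 0.0632 (KO with mutant) across genes. Phf1, Cbx6 and Setd1a appear only in merged entries in Sall4 het and KO replicate 1 and were left out there. In mutant replicate 2, 18 symbols were set by Ensembl ID. Values in every library are given for members past 1.5-fold in both replicates or 2-fold in a pair, and for the highest and lowest of each class. The members and lists were chosen with earlier results of these data known. One gene counted in the list of Polycomb target regulators is not reported here by name. The fit was tested on simulated data.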

Additional observations from a re-analysis of the deposited data

How the results depend on the processing

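No replicate block left 0 called genes in each of the 3 fits, as did most other settings, and it changed no call. For mutant against het, a pseudocount of 0.1 gave 1 called gene and upper-quartile scaling 1. Leaving out 1 library gave 0 to 787 calls for mutant against KO and 0 to 677 for mutant against het, from 0 with all libraries; the calls came from fits without a mutant library, where 1 mutant library is left and its spread is taken from het and KO. Without scaling, class medians of the log2 ratio moved. For mutant against KO replicate 1 they became -0.36 (PRC2), -0.74 (PRC1) and 0.50 (H3K4). For replicate 2 they became -0.28, -0.35 and -0.21, and for WT against KO -0.32, -0.62 and 0.40. The H3K4 medians moved to -0.18 in the DKO pair, -0.033 in KO against het replicate 1 and 0.042 in replicate 2. With a pseudocount of 0.1 the H3K4 medians were 0.80 (mutant replicate 1) and 0.65 (WT), and over members at 5 or more -0.034 (KO against het replicate 1) and 0.11 (mutant replicate 2). Directions turned for changes that did not pass: Setd1b in KO against het (0.0024 without scaling, 0.033 by upper quartile) and Phc2 in mutant against het (0.090 by upper quartile). Leaving out 1 library, the log2 changes spanned in KO against het -0.58 to 0.22 for Mtf2, -0.33 to 0.57 for Phc1, -0.70 to 0.54 for Kdm2b, -0.43 to 0.25 for Yaf2, -2.48 to 0.094 for Kdm5a and -0.051 to 0.25 for Kdm6b. In mutant against KO they spanned -1.58 to 0.58 for Kdm2b and -1.89 to 1.29 for Kdm5a, and in mutant against het -0.12 to 0.056 for Phc2, -1.66 to 0.50 for Kdm2b and -3.08 to 0.098 for Kdm5a. Bmi1 and Phc2 kept their direction in KO against het in every setting run, and Suz12 in every setting that could fit it (not without a het or KO library). The ends of the KO against het spans came from fits without 1 het or KO library. Those fits take the difference between replicates partly from the mutant libraries, so the spans are not read as instability of the KO to het ratios. Over the het and KO libraries alone the changes were -0.18 for Mtf2, 0.12 for Phc1, -0.081 for Kdm2b, -0.092 for Yaf2, -1.19 for Kdm5a and 0.10 for Kdm6b. The cause of the other shifts was not tested, and 2 libraries a group and unknown depth limit all of them.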
